A study of Mus musculus with 16 samples.

Results

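The genes described here are the mouse genes that bring folate into cells and hold it there: the receptors Folr1 and Folr2, the endocytic receptor Lrp2, the carriers Slc19a1 and Slc46a1, and the enzymes Fpgs and Ggh. They were taken by symbol from the 24421 genes listed in each library, and all 7 were found. Of these, 6 passed the filter on low counts that left 14514 genes for testing, while Folr2 did not pass it.

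Cells cannot make folate and take it up by several routes. Folr1 and Folr2 are receptors held on the cell surface by a lipid anchor, and they bind folic acid tightly and enter the cell by endocytosis. Lrp2 (megalin) is a giant endocytic receptor that takes up many ligands, folate-binding proteins among them. Slc19a1, the reduced folate carrier, exchanges folates across the plasma membrane at neutral pH, and Slc46a1 is a proton-coupled carrier that works best in acid compartments. Once inside, folates are retained when Fpgs adds a chain of glutamates, and Ggh removes that chain in the lysosome. Mouse embryos without Folr1 fail to close the neural tube and die unless the mother is given extra folate, and embryos without Lrp2 have forebrain defects.

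RNA was sequenced from heads of mouse embryos at embryonic day 8.5, cut between the first branchial arch and the otic region. The 16 libraries fell into 4 groups of 4. Enriched mutants were embryos homozygous for a null allele of Ift88 whose families had received 10 ppm folic acid, and enriched WT were wild type embryos on that diet. Moderate mutants and moderate WT had the same genotypes on 2 ppm folic acid, and each diet had been kept for 3 generations. Ift88 is a subunit of the intraflagellar transport particle without which cilia are not built, and the series asks about folic acid supplementation and cilia. No group went without folic acid, so diet effects compare 10 ppm with 2 ppm. The labels name no strain and no litter, so the p-values speak for the spread among the libraries at hand.

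Levels are given in CPM, read counts scaled to one common library size. Ift88 checked the genotype labels. It stood at 2.99, 8.61, 2.86 and 5.25 CPM in enriched mutants 1 to 4, against 18.98, 20.7, 17.9 and 20.8 CPM in enriched WT 1 to 4. Moderate mutants 1 to 4 held 3.35, 6.44, 2.01 and 3.44 CPM, and moderate WT 1 to 4 held 19.9, 9.30, 20.9 and 20.7 CPM. The genotypes did not overlap, and enriched mutant 2 and moderate WT 2 came closest to each other. Moderate WT 2 lay far below the other WT libraries, which held 17.9 to 20.9 CPM, and its genotype label was kept. Between 19249433 and 44267434 counts per library fell on genes. Moderate mutant 3 stood apart on the first principal component, at 3.66 where the other 7 mutants lay between -23.7 and -14.7 and the WT libraries between 12.6 and 19.3. Counts of sex-linked genes contradicted the labelled sex of moderate mutants 1 and 2 and of moderate WT 2. The 10 neuroepithelial markers were present in all 16 libraries, with a summed level of 1241 to 1474 CPM, as were the 10 head mesenchyme markers at 768 to 1121 CPM. Summed hypoxia-induced genes reached 3595 to 4478 CPM in enriched mutants against 1504 to 2068 CPM in enriched WT, and 2071 to 5195 CPM in moderate mutants against 1321 to 1492 CPM in moderate WT. All 12 of these genes were higher in mutants on both diets, at an edgeR adjusted p under 0.05. Of all genes tested, 14.4% were so on the enriched diet and 4.79% on the moderate diet. Summed floor plate genes came to 169 to 226 CPM in enriched mutants against 300.3 to 324 CPM in enriched WT, and 210.4 to 242 CPM in moderate mutants against 301 to 319 CPM in moderate WT. Much of each sum was Ntn1, with means of 142 CPM in mutants and 138 CPM in WT. Of the 8 genes, 7 were lower on the enriched diet and 6 on the moderate diet, at an edgeR adjusted p under 0.05. Of all genes tested, 16.8% and 2.83% were lower. The median log2 fold change of the 8 genes was -3.69 on the enriched diet and -3.19 on the moderate diet.

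Per kilobase of merged exons, the genes spanned a wide range of levels over the 16 libraries. Fpgs averaged 12.6 ± 1.082 CPM per kilobase (SD, n = 16), Lrp2 12.3 ± 2.30 and Slc19a1 10.4 ± 0.974. The means of these 3 neighbours in the order lay within the SD of Lrp2 of one another. Slc46a1 averaged 6.88 ± 1.09 CPM per kilobase, Ggh 4.01 ± 0.576, Folr1 1.69 ± 0.912 and Folr2 0.109 ± 0.0696, and each of these steps was larger than the SDs on either side of it. The carriers, the retention enzymes and Lrp2 were thus measured on 120 to 8141 counts per library, and Folr1 on 45 to 343 counts. Over all 16 libraries Folr1 had a coefficient of variation of 54.1%, which includes the difference between genotypes described below. Within a group it ran from 18.5 to 35.5% for Folr1, from 10.5 to 26.5% for Lrp2 and from 5.18 to 9.78% for Fpgs. Counting error alone amounts to 14.9% of the Folr1 level in its lowest library and 5.40% in its highest.

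**Figure D1:**
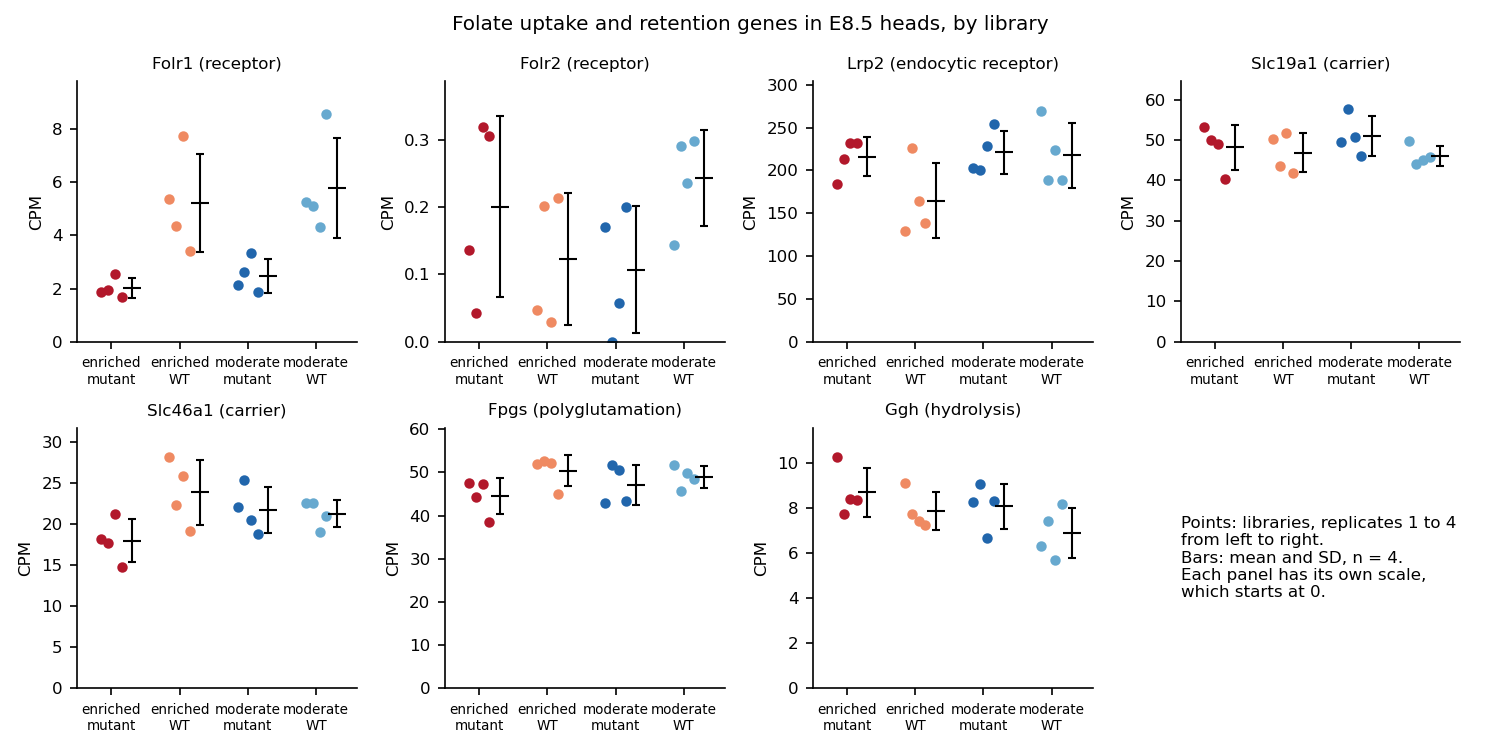
Level of each gene in each library, in CPM on axes that start at 0 and differ between panels, with points for replicates 1 to 4 and bars for the mean and SD (n = 4). Folr1 shows 8 mutant libraries at 1.69 to 3.32 CPM below 8 WT libraries at 3.42 to 8.53 CPM, Slc46a1 is lowest in enriched mutants, and Folr2 lies at 0 to 0.318 CPM.

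Loss of Ift88 went with less Folr1 on both diets and with less Slc46a1 on the enriched diet. The other 4 tested genes did not pass the test on either diet. On the enriched diet, 2 of the 6 tested genes passed, where 31.2% of all genes tested did, and on the moderate diet 1 of 6, where 7.62% did. Both shares stand on 6 genes. The 6 genes had a median log2 fold change of -0.09 on the enriched diet, beside -0.01 over all genes tested, and of 0.02 on the moderate diet, beside -0.01.

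Folr1, the folate receptor of neural folds and other epithelia in the mouse embryo, was the gene of this group that differed most by genotype. It lies on chromosome 7 of mm10 from 101858331 to 101870788 on the minus strand, next to Folr2. The coding stretch around the longest run shared within exons is shown from both genes, with the bases that differ between them in capitals. The stretches lie at chr7:101858599-101858708 and chr7:101840316-101840425 of mm10, minus strand, and come from the GENCODE vM21 transcripts.
Folr1: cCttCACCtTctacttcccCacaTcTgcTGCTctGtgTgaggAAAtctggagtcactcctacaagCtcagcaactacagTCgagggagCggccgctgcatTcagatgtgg
Folr2: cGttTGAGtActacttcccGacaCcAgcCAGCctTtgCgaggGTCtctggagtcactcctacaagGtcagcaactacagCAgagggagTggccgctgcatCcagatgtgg
These 110 bases differ at 23 positions (79.1% identity), and their longest shared run is 20 bases. The stretch was chosen for that run, so its identity does not speak for the whole coding sequence. No run of 50 bases was shared between the transcripts of Folr1 and Folr2, and 0.398% of the 50-base words of Folr1 occurred in another annotated gene, Gm18334.

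Folr1 stood at 1.86, 1.95, 2.55 and 1.69 CPM in enriched mutants 1 to 4, against 5.37, 4.34, 7.71 and 3.42 CPM in enriched WT 1 to 4. Each enriched mutant lay below each enriched WT, a separation downward that 12.5% of all genes tested showed. Its mean was 2.01 ± 0.371 CPM in enriched mutants and 5.21 ± 1.85 CPM in enriched WT (SD, n = 4 each). The log2 fold change, mutant over WT, was -1.45 ± 0.28 (SE; 95% interval -2.04 to -0.86; adjusted p = 0.00163, edgeR quasi-likelihood test with Benjamini-Hochberg adjustment), which is 0.365 of the WT level. Only 96 of the 14514 genes had a lower log2 fold change in this comparison.

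On the moderate diet, Folr1 stood at 2.12, 2.62, 3.32 and 1.88 CPM in mutants 1 to 4, against 5.23, 5.08, 4.30 and 8.53 CPM in WT 1 to 4. The groups again did not overlap, as was so in this direction for 7.06% of all genes tested. The mean was 2.49 ± 0.638 CPM in moderate mutants and 5.79 ± 1.88 CPM in moderate WT (SD, n = 4 each). The log2 fold change was -1.22 ± 0.26 (95% interval -1.78 to -0.66; edgeR adjusted p = 0.00969), which is 0.430 of the WT level. Over both diets, the 8 mutant libraries at 1.69 to 3.32 CPM lay below the 8 WT libraries at 3.42 to 8.53 CPM, a separation that 1.93% of genes tested showed, and the mean log2 fold change of the diets was -1.34 ± 0.19 (edgeR adjusted p = 9.81e-05).

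The 2 libraries whose Ift88 level came nearest to the other genotype followed their labels for Folr1, with 1.95 CPM in enriched mutant 2 and 5.08 CPM in moderate WT 2. Moderate mutant 3, which stood apart on the first principal component and had the lowest hypoxia sum among mutants (2071 CPM), had the highest Folr1 of the 8 mutants. Without it the moderate log2 fold change was -1.38 (edgeR adjusted p = 0.00536). The call on the enriched diet held under the 26 alternatives run, with log2 fold changes of -1.63 to -1.15. The call on the moderate diet was lost only when the 3 libraries of contradicted sex were left out together (-1.26, adjusted p = 0.224). In tissue RNA, fewer cells that make Folr1 and less Folr1 RNA per cell cannot be told apart. The 12 visceral and yolk sac endoderm markers, a tissue that also makes Folr1, summed to 5.93 to 133 CPM in enriched mutants, 10.1 to 32.9 in enriched WT, 6.59 to 38.3 in moderate mutants and 11.8 to 25.02 in moderate WT. The group ranges of that sum overlapped. On the enriched diet 0 of its 9 tested genes passed, where 31.2% of all genes tested did. On the moderate diet 0 passed, where 7.62% did. Their median log2 fold change was 0.96 on the enriched diet and 2.06 on the moderate diet. The hypoxia and floor plate sums above separated the genotypes on both diets. The part of endoderm, hypoxia and floor plate genes in the Folr1 result was not tested.

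Folr2, the folate receptor of macrophages and placenta, was close to the limit of detection. It had 6, 1, 6 and 9 counts in enriched mutants 1 to 4, against 1, 5, 1 and 7 counts in enriched WT 1 to 4. Moderate mutants 1 to 4 held 5, 0, 2 and 5 counts, and moderate WT 1 to 4 held 3, 6, 5 and 12 counts. The groups overlapped, and the 0 in moderate mutant 2 allows up to 0.123 CPM, set at 3 counts, for counting error only. With no filter on low counts, the log2 fold change was 0.64 ± 0.71 on the enriched diet (95% interval -0.84 to 2.12; edgeR adjusted p = 0.576) and -1.16 ± 0.70 on the moderate diet (-2.62 to 0.30; adjusted p = 0.411). The moderate interval takes in the Folr1 change on that diet (-1.22). The enriched interval does not reach the Folr1 fall (-1.45) but takes in a rise of that size, and it stands on 1 to 9 counts per library. Summed macrophage markers (12 listed, 4 tested) came to 4.08 to 6.27 CPM in enriched mutants against 4.66 to 9.03 CPM in enriched WT, and to 1.52 to 3.83 CPM in moderate mutants against 4.96 to 11.9 CPM in moderate WT. On the moderate diet 3 of the 4 passed as lower, where 2.83% of all genes tested did. On the enriched diet 0 passed as lower, where 16.8% did. Between 8 and 11 of the 12 listed markers averaged under 1 CPM in each group. Of the exon bases of Folr2, 975 of 1546 overlap genes on the opposite strand, and 52.6% of its 50-base words also lie in Gm10602. The libraries kept no strand, and the counting mode and annotation are not given. Reads on those bases may have been counted for Folr2, counted for a partner or set aside as ambiguous. Ambiguous reads came to 1.20 to 1.39% per library. The counts of Folr2, and its level per kilobase, may thus be too low or mixed with those of its partners.

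Lrp2, on chromosome 2 from 69424340 to 69586065 on the minus strand, is the receptor with the highest level and also binds sonic hedgehog. It stood at 184, 214, 233 and 233 CPM in enriched mutants 1 to 4, against 129, 226, 164 and 139 CPM in enriched WT 1 to 4. Enriched WT 2 lay among the mutants, and the other 3 enriched WT libraries were the lowest 3 of all 16. The log2 fold change was 0.37 ± 0.15 (95% interval 0.05 to 0.69; edgeR adjusted p = 0.0729), short of the threshold of 0.05. The call depended on single libraries and on the method. Without enriched WT 2 the value was 0.62 (adjusted p = 0.00726), and without enriched mutant 1 it was 0.49 (adjusted p = 0.0282). With all 16 libraries it passed by DESeq2 (0.39, adjusted p = 0.0403) and by edgeR with no filter on low counts (0.40, adjusted p = 0.0465).

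On the moderate diet Lrp2 stood at 203, 200.2, 228 and 254 CPM in mutants 1 to 4, against 269, 189, 224 and 189 CPM in WT 1 to 4. The ranges overlapped, with a log2 fold change of 0.02 ± 0.15 (95% interval -0.30 to 0.34; edgeR adjusted p = 0.958). The difference between the enriched and the moderate genotype effect was 0.35 ± 0.21 (95% interval -0.10 to 0.80; edgeR adjusted p = 0.531), so the effects were not shown to differ.

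Slc19a1, on chromosome 10 from 77032241 to 77061002 on the plus strand, was the most even of the carriers. It stood at 53.2, 50.1, 49.2 and 40.4 CPM in enriched mutants 1 to 4, against 50.2, 43.7, 51.8 and 41.9 CPM in enriched WT 1 to 4. Moderate mutants 1 to 4 held 49.4, 57.8, 50.7 and 46.0 CPM, and moderate WT 1 to 4 held 49.7, 44.2, 44.99 and 45.7 CPM. The 4 groups overlapped, and the lowest values of all 16 libraries were those of enriched mutant 4 and enriched WT 4, which also had the highest shares of reads on no annotated feature (17.0% and 16.8%). Log2 fold changes were 0.02 on the enriched diet (95% interval -0.19 to 0.23; edgeR adjusted p = 0.876) and 0.14 on the moderate diet (-0.06 to 0.35; adjusted p = 0.395). Those intervals leave room for changes of up to 1.18-fold and 1.27-fold.

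Slc46a1 is the proton-coupled carrier, at chromosome 11 from 78465697 to 78472059 on the plus strand. It was the carrier that passed the test, so its promoter is shown. The window lies at chr11:78465451-78465750 of GRCm38.p6, plus strand, and was taken from RefSeq. Capitals mark the match to GCGC, any 2 bases and GCGC again, the core of the site bound by NRF1, a factor known to act on the human SLC46A1 promoter.
Slc46a1 promoter: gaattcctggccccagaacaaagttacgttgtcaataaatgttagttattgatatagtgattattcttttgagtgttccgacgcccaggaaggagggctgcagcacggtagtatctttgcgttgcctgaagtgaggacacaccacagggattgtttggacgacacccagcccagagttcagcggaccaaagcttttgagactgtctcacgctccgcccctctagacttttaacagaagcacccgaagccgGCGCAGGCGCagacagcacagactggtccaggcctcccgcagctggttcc
The motif was searched on both strands of windows of 300 bases and was found in 2045 of 32851 promoters (6.23%). It was in none of the windows of Fpgs, Lrp2, Folr2 and Slc19a1, while Folr1 and Ggh were not matched. The string ACGTG, a form of the hypoxia response core, was found in 19.6% of promoters and in none of the windows of the 5 matched genes. The form GCGTG was not searched, so these windows are not shown to lack the core. A match is a string of letters in a window, and binding was not measured.

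The level of Slc46a1 was 18.1, 17.7, 21.3 and 14.8 CPM in enriched mutants 1 to 4, against 28.1, 22.3, 25.8 and 19.2 CPM in enriched WT 1 to 4. Enriched mutant 3 overlapped with enriched WT 4, and the other 3 mutants lay below all 4 WT libraries. The mean was 18.0 ± 2.66 CPM in enriched mutants and 23.9 ± 3.94 CPM in enriched WT (SD, n = 4 each). Its log2 fold change was -0.44 ± 0.13 (95% interval -0.72 to -0.15; edgeR adjusted p = 0.0218), or 0.738 of the WT level. This call depended on single libraries: the adjusted p was 0.0561 without enriched mutant 1, 0.0590 without mutant 2, 0.0851 without mutant 4, 0.0846 without enriched WT 1, 0.0833 without WT 3, and 0.0635 with the enriched groups fitted alone, at log2 fold changes between -0.43 and -0.32.

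Moderate mutants 1 to 4 held 22.1, 25.3, 20.5 and 18.8 CPM of Slc46a1, against 22.5, 22.6, 19.0 and 20.9 CPM in moderate WT 1 to 4. These groups overlapped throughout, with a log2 fold change of 0.03 ± 0.13 (95% interval -0.25 to 0.31; edgeR adjusted p = 0.919). The genotype effect was lower on the enriched than on the moderate diet by a log2 difference of -0.47 ± 0.19 (95% interval -0.87 to -0.07), with an unadjusted p of 0.0238 and an edgeR adjusted p of 0.501. The difference between diets was therefore not shown once all genes were counted. The hypoxia sum separated the genotypes on both diets, and the part of those genes in the Slc46a1 level was not tested.

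**Figure D2:**
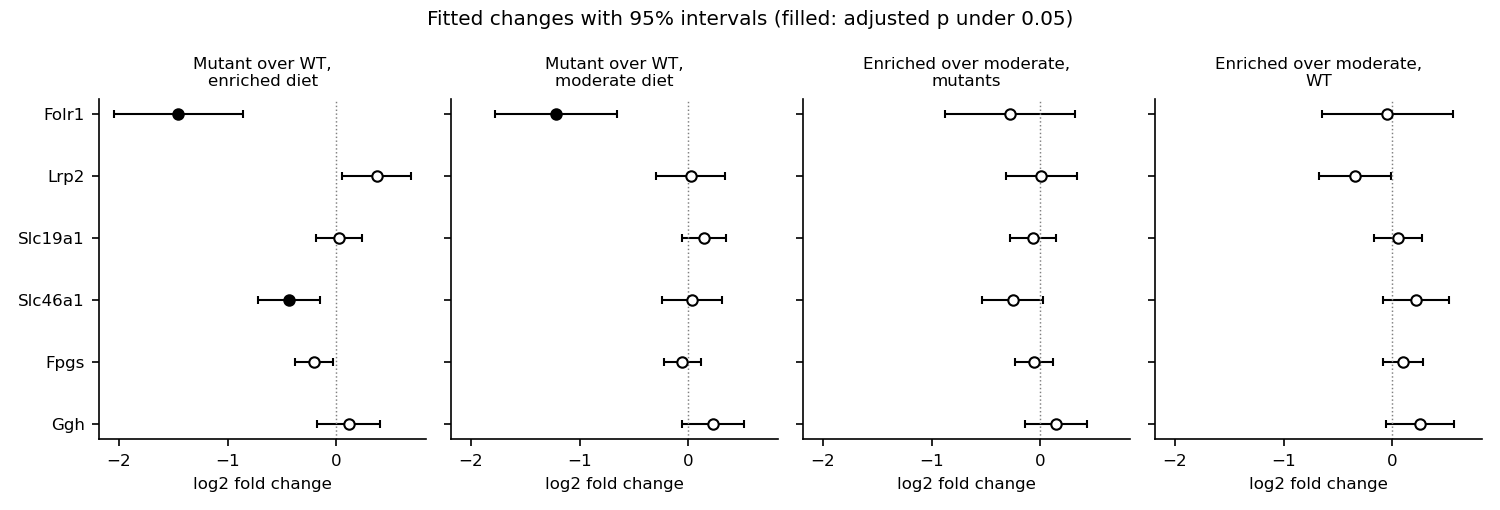
Fitted log2 fold changes of the 6 tested genes in 4 comparisons, with 95% intervals on a shared axis and filled points where the adjusted p was under 0.05. Folr1 is filled in both genotype comparisons, Slc46a1 on the enriched diet, and no point is filled in the diet comparisons.

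Fpgs, on chromosome 2 from 32682609 to 32704145 on the minus strand, makes the polyglutamates that keep folate in the cell. It stood at 47.6, 44.4, 47.4 and 38.6 CPM in enriched mutants 1 to 4, against 51.9, 52.6, 52.2 and 44.9 CPM in enriched WT 1 to 4. Enriched WT 4 lay within the mutant range and the other 3 WT libraries above it. The log2 fold change was -0.21 ± 0.08 (95% interval -0.39 to -0.03; edgeR adjusted p = 0.0639), and leaving out enriched WT 4 brought it to -0.25 (adjusted p = 0.0367). Leaving out moderate mutant 4 also brought the adjusted p under the threshold (0.0490), at -0.21.

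On the moderate diet Fpgs stood at 42.8, 51.7, 50.5 and 43.5 CPM in mutants 1 to 4, against 51.7, 45.7, 49.9 and 48.6 CPM in WT 1 to 4. The groups overlapped, with a log2 fold change of -0.06 ± 0.08 (95% interval -0.23 to 0.11; edgeR adjusted p = 0.727). Of the exon bases of Fpgs, 198 of 3802 overlap Eng or Mir8093.

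Ggh, on chromosome 4 from 20042052 to 20066750 on the plus strand, is the lysosomal hydrolase that undoes the work of Fpgs. Its levels were 10.3, 7.75, 8.38 and 8.37 CPM in enriched mutants 1 to 4, against 9.11, 7.72, 7.42 and 7.26 CPM in enriched WT 1 to 4. Moderate mutants 1 to 4 held 8.27, 9.06, 6.65 and 8.28 CPM, and moderate WT 1 to 4 held 6.29, 7.41, 5.67 and 8.16 CPM. Mutants had the higher mean on each diet, but the ranges overlapped. The log2 fold change was 0.11 ± 0.14 on the enriched diet (95% interval -0.18 to 0.40; edgeR adjusted p = 0.554) and 0.23 ± 0.14 on the moderate diet (-0.06 to 0.51; adjusted p = 0.338).

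Ratios of read counts within a library do not depend on the scaling between libraries, and they are given as a description with no test. The share of all gene pairs whose ratios separate the genotypes was not computed. The Fpgs to Ggh ratio averaged 5.16 ± 0.618 in enriched mutants, 6.43 ± 0.608 in enriched WT, 5.93 ± 1.13 in moderate mutants and 7.28 ± 1.43 in moderate WT (SD, n = 4 each). Mutants thus had the lower mean of synthesis over hydrolysis transcripts on each diet, with ranges that overlapped. The Slc19a1 to Slc46a1 ratio was 2.93, 2.82, 2.31 and 2.73 in enriched mutants 1 to 4, against 1.79, 1.96, 2.01 and 2.19 in enriched WT 1 to 4, with no overlap. The levels of Slc19a1 and of Slc46a1 each overlapped between these groups. It ran from 2.24 to 2.47 in moderate mutants and from 1.96 to 2.37 in moderate WT, which overlapped. The Folr1 to Slc19a1 ratio ran from 0.0349 to 0.0518 in enriched mutants against 0.0815 to 0.149 in enriched WT, and from 0.0408 to 0.0655 in moderate mutants against 0.0956 to 0.187 in moderate WT. Set against the carrier, Folr1 was therefore lower in every mutant library than in every WT library.

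**Figure D3:**
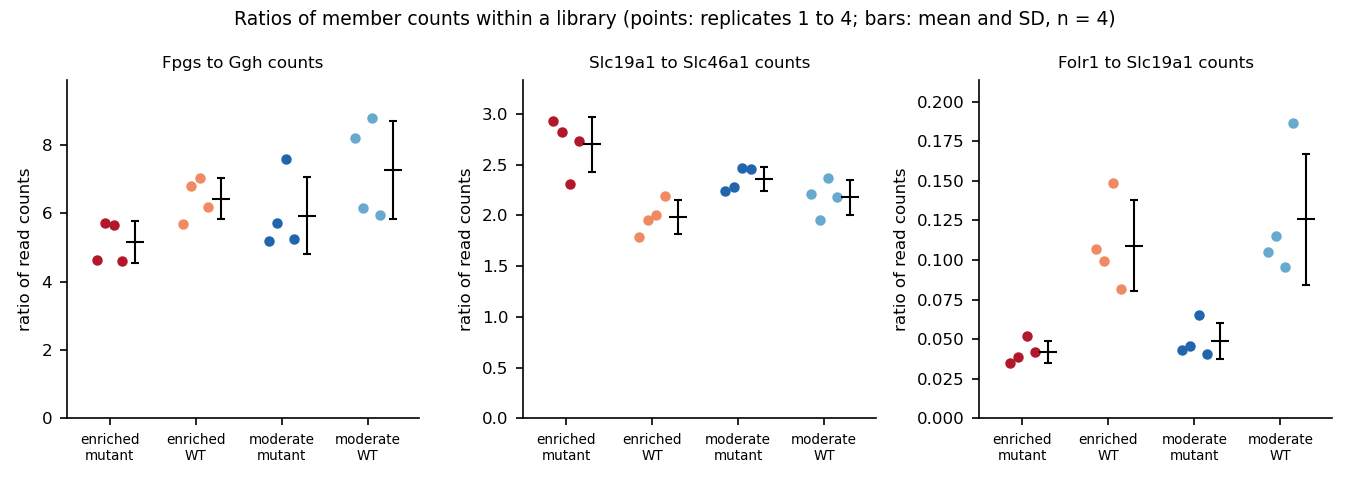
Ratios of read counts of paired genes within each library, on axes that start at 0, with points for replicates 1 to 4 and bars for the mean and SD (n = 4). The Folr1 to Slc19a1 ratio lies at 0.0349 to 0.0655 in mutants and 0.0815 to 0.187 in WT, and the Slc19a1 to Slc46a1 ratio does not overlap between the genotypes on the enriched diet. No ratio was tested.

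The enriched diet did not move any of the 6 tested genes past the threshold. Of all genes tested, 0% passed in mutants and 0% in WT by edgeR (0 genes each), with 1565 and 354 genes at an unadjusted p under 0.05, while DESeq2 called 3 genes in mutants and 1 in WT. Among the 6 genes, enriched over moderate, adjusted p-values ran from 0.486 to 0.986 in mutants and from 0.967 to 0.992 in WT. Folr1 had a log2 fold change of -0.28 ± 0.28 in mutants (95% interval -0.88 to 0.32) and of -0.05 ± 0.29 in WT (-0.65 to 0.56), so diet effects on it of up to 1.25-fold and 1.47-fold upward, and larger ones downward, lie inside the intervals. Slc46a1 had -0.25 ± 0.13 in mutants (-0.53 to 0.03) and 0.22 ± 0.14 in WT (-0.08 to 0.52). Lrp2 in WT was the member with the smallest unadjusted p, at -0.34 ± 0.16 (-0.67 to -0.01; unadjusted p = 0.0446, edgeR adjusted p = 0.967), from the 3 low enriched WT libraries named above. Slc19a1 and Fpgs had the tightest diet intervals, within -0.28 and 0.28.

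For the difference of the genotype effects between the diets, 0% of genes passed by edgeR (0 genes, with 1401 at an unadjusted p under 0.05) and 0 by DESeq2. Slc46a1 was the member with an unadjusted p under 0.05, given above. Folr1 differed by -0.24 ± 0.38 (95% interval -1.05 to 0.58; edgeR adjusted p = 0.800), Fpgs by -0.15 ± 0.12 (adjusted p = 0.585) and Ggh by -0.11 ± 0.19 (adjusted p = 0.814). With 35.8% of all genes passing for the mean of both diets, 1 of the 6 genes, Folr1, did so.

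Partners of these genes and exporters of folate were read from a list of 16 genes, 11 of which were tested. On the enriched diet 3 rose and 2 fell, where 14.4% of all genes tested rose and 16.8% fell, with a median log2 fold change of 0.08 beside -0.01 over all genes, and on the moderate diet 1 rose and none fell, where 4.79% rose and 2.83% fell, with a median of 0.04 beside -0.01. Those that rose were ATP-driven exporters for which folates are among the substrates. Abcc1 averaged 78.8 ± 8.19 CPM in enriched mutants and 44.7 ± 2.85 CPM in enriched WT, and 71.1 ± 10.3 CPM in moderate mutants and 50.3 ± 5.77 CPM in moderate WT (SD, n = 4 each). Its log2 fold change was 0.82 ± 0.11 on the enriched diet (edgeR adjusted p = 0.000202) and 0.50 ± 0.11 on the moderate diet (adjusted p = 0.0113), and the moderate call was lost without the 3 libraries of contradicted sex (0.38, adjusted p = 0.418). Abcc4 averaged 34.2 ± 4.28 CPM in enriched mutants and 24.1 ± 1.87 CPM in enriched WT, with a log2 fold change of 0.46 ± 0.11 (edgeR adjusted p = 0.00632). Its value was 0.34 ± 0.11 on the moderate diet (adjusted p = 0.0707), with 0.47 (adjusted p = 0.000933) without moderate mutant 3, 0.14 (adjusted p = 0.796) without the 3 libraries of contradicted sex and 0.34 (adjusted p = 0.0387) by DESeq2. Abcc5 had a log2 fold change of 0.48 ± 0.15 on the enriched diet (edgeR adjusted p = 0.0249), which became 0.32 (adjusted p = 0.121) without enriched mutant 4, and it also missed the threshold without enriched WT 1 (0.0578) or enriched WT 3 (0.0683) and with the enriched groups fitted alone (0.0625).

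The exporter Abcg2 and Lrpap1, the chaperone of Lrp2, passed narrowly on the enriched diet, with log2 fold changes of -0.29 ± 0.10 (edgeR adjusted p = 0.0377) and -0.19 ± 0.07 (adjusted p = 0.0384). Their calls were lost in 16 and 19 of 26 alternatives, and the count of 5 called genes became 2 without enriched WT 1 or enriched WT 3, and 3 without any one of enriched mutants 1, 2 and 4, moderate mutants 1 and 2, and moderate WT 1, 2 and 3. Tcn2, the blood carrier of vitamin B12, had 0.08 ± 0.10 on the enriched diet (adjusted p = 0.580) and 0.18 ± 0.10 on the moderate diet (adjusted p = 0.283). Cubn, the partner of Lrp2 in epithelia, ran from 0.995 to 18.4 CPM in enriched mutants against 2.20 to 3.02 CPM in enriched WT, and it is itself one of the endoderm markers. Folh1, Izumo1r, Abcc2, Abcc3 and Slc22a7 were not tested, at group means of at most 0.351 CPM.

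Among 22 genes of the folate cycle, 21 were tested. On the enriched diet 4 rose and 6 fell, where 14.4% of all genes tested rose and 16.8% fell, with a median log2 fold change of -0.12 beside -0.01 over all genes. Of the same genes, 4 rose and none fell on the moderate diet, where 4.79% rose and 2.83% fell, with a median of -0.05 beside -0.01. Those that rose, on both diets, were the mitochondrial enzymes Shmt2, Mthfd2, Mthfd1l and Aldh1l2, which handle one-carbon units carried by folate. Other mitochondrial enzymes of the list did not share that direction: Mthfd2l stood at -0.12 ± 0.08 on the enriched diet (edgeR adjusted p = 0.279) and -0.06 ± 0.08 on the moderate diet (adjusted p = 0.712). Gcsh and Amt of the glycine cleavage system fell on the enriched diet, by 0.58 (adjusted p = 0.00238) and 0.38 (adjusted p = 0.00284), and missed the threshold on the moderate diet at -0.16 and -0.14. Shmt2 had log2 fold changes of 0.75 ± 0.11 on the enriched diet (edgeR adjusted p = 0.000376) and 0.86 ± 0.11 on the moderate diet (adjusted p = 0.000225), Mthfd2 of 1.03 ± 0.15 and 0.81 ± 0.15, and Mthfd1l of 0.68 ± 0.09 and 0.65 ± 0.09. Aldh1l2 had 3.05 ± 0.37 on the enriched diet (edgeR adjusted p = 9.75e-05) and 1.61 ± 0.36 on the moderate diet (adjusted p = 0.0118), and the moderate value missed the threshold without moderate mutant 4 (1.19, adjusted p = 0.0531) or moderate WT 3 (1.47, adjusted p = 0.0585), by limma-voom (1.33, adjusted p = 0.0800) and with the moderate groups fitted alone (1.61, adjusted p = 0.0615). Without the 3 libraries of contradicted sex, Shmt2 alone of these 4 passed on the moderate diet. Tyms, which uses folate to make thymidylate, fell on the enriched diet, by 0.64 on the log2 scale (edgeR adjusted p = 0.000455), and stood at -0.25 ± 0.10 on the moderate diet (adjusted p = 0.126). Gldc, of the glycine cleavage system, fell by 0.62 on the enriched diet (edgeR adjusted p = 0.00118) and stood at -0.36 ± 0.11 on the moderate diet (adjusted p = 0.0564). Without moderate mutant 3 the moderate values of Tyms (-0.31, adjusted p = 0.0481) and Gldc (-0.37, adjusted p = 0.0469) passed, and Gldc also passed without enriched mutant 2 (0.0392) or enriched mutant 3 (0.0214). With all its libraries kept, Gldc passed on the moderate diet by DESeq2 (0.0227), with a filter on CPM (0.0499), with the replicate block (0.0360) and with the moderate groups fitted alone (0.0311). No gene of either list passed in a diet comparison by edgeR.

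**Figure D4:**
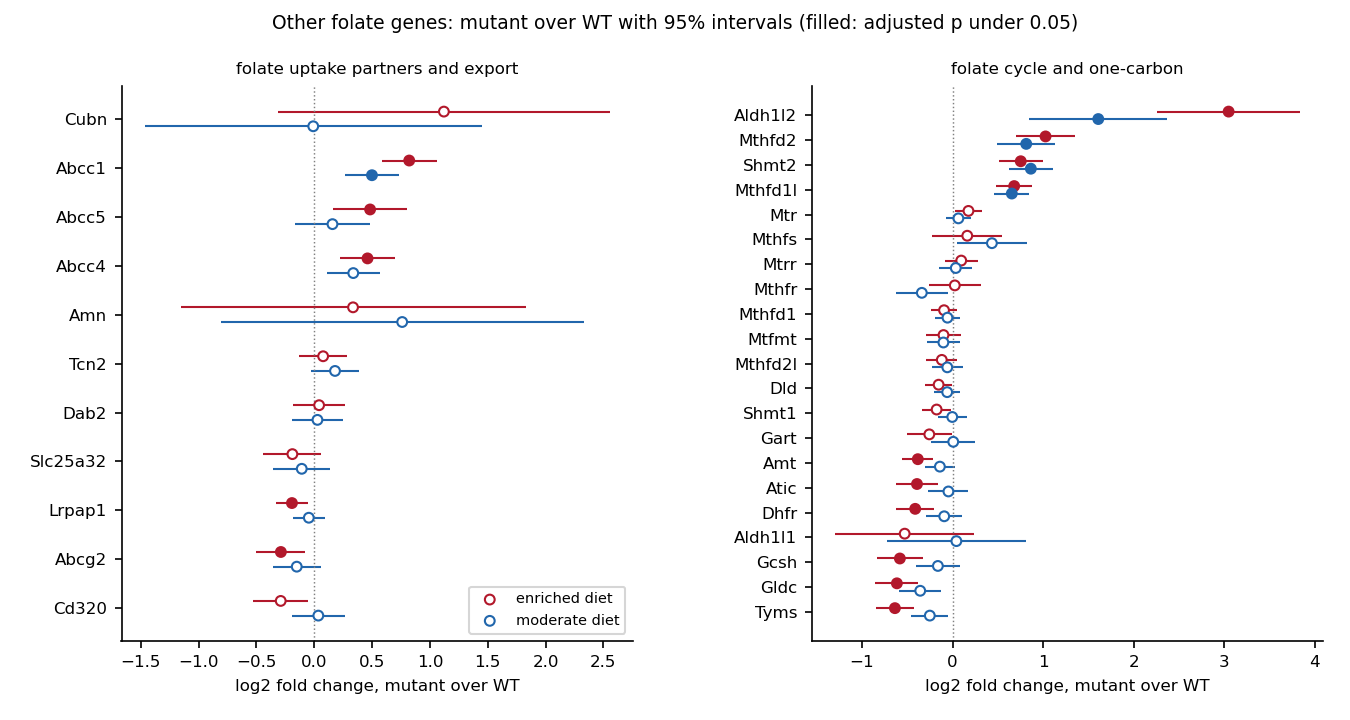
Log2 fold changes, mutant over WT, of the tested partners, exporters and folate cycle genes, with 95% intervals, the enriched diet (red) above the moderate diet (blue), and filled points where the adjusted p was under 0.05. Abcc1 and the mitochondrial enzymes Aldh1l2, Mthfd2, Shmt2 and Mthfd1l are filled on both diets, and the filled points left of 0 are those of the enriched diet.

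For each tested member, the 3 genes with the most similar profile over the 16 libraries were found among 11879 genes with a mean of at least 1 CPM, by the root mean square difference of centred log2 CPM. Those nearest to Folr1 were Thbs4 (0.302), Rasl10b (0.313) and Pgm5 (0.327), where the median gene lay at 0.727 and a flat profile at 0.713. Their log2 fold changes were -1.11, -1.12 and -1.11 on the enriched diet and -0.73, -0.66 and -0.84 on the moderate diet, less than those of Folr1. Nearest to Lrp2 were Frem2 (0.137), Fermt1 (0.147) and Fras1 (0.149), with the median gene at 0.348. Nearest to Slc46a1 were Lsm3 (0.0680), Rps27l (0.0693) and Fam96a (0.0712), with the median gene at 0.281. Slc19a1 lay nearest to Aimp1, Vdac2 and Ext2, Fpgs to Max, Dscr3 and Cdc42se1, and Ggh to Atp6v1h, B4gat1 and Echdc2. When group means replaced libraries, 0 of the 3 genes named for each member stayed among its nearest 3.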

How the data were processed

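The 7 genes and all gene lists were chosen with earlier results of these data known, and the lists were written from general knowledge. The authors deposited unnormalized read counts for each gene symbol. Per the submitters' processing notes, FastQC 0.11.5, TopHat2 2.1.1, SAMtools 1.8, HTSeq 0.9.1 and DESeq2 1.22.2 were used on the mouse build mm10. The counting mode, strand option and annotation are not given in the sources used here. Per the labels' protocols, libraries came from a TruSeq RNA v2 kit, which marks no strand.

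Genes reaching 10 counts in 4 or more libraries were kept (59.4%). The 5 summary lines were left out, and reads on no feature came to 13.7 to 17.0%. Counts were scaled by trimmed means of M values and fitted with edgeR 4.0.16 and limma 3.58.1 (R 4.3.3) over all 16 libraries, with a coefficient per group and the labelled sex. The quasi-likelihood test was adjusted by Benjamini-Hochberg over all genes, with a threshold of 0.05. SE is the log2 fold change over the square root of F. The model was tested on simulated counts. DESeq2 1.42.0, limma-voom, other scaling, filters and covariates, the replicate block and leaving out libraries were alternatives. Replicate libraries differed beyond sampling noise (chi-square per degree of freedom of at least 6.82). Profiles were compared on log2 CPM with a prior count of 2. Named genes are the members, up to 5 genes per list with the smallest p in a genotype comparison, and the 3 nearest profiles, with Cubn, Mthfd2l, Gcsh, Amt and the untested genes added after their values were seen. Gene positions and exon lengths came from GENCODE vM21, and promoters of 5 of the 7 genes from RefSeq GRCm38.p6.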

Additional observations from a re-analysis of the deposited data

Results flagged for a closer look

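One value lay far from the rest of its group. Fpgs stood at 44.9 CPM in enriched WT 4, where enriched WT 1, 2 and 3 held 51.9, 52.6 and 52.2 CPM, a gap of 0.909 of the group's range, above Dixon's 95% limit for 4 samples. Chance gives about 1 such value in 20 groups, and 40 groups of 4 libraries were examined. The same library had 16.8% of its reads on no annotated feature, the second highest share of the 16, and the part of that share in the Fpgs level was not tested.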

How the results depend on the processing

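With the enriched diet, the count of members past the threshold was 4 at an adjusted p under 0.1, 1 with the 2 groups fitted alone, and 1 to 3 on leaving out single libraries, falling to 1 without enriched mutants 2 or 4 or enriched WT 1 or 3. On the moderate diet it was 0 without the 3 libraries of contradicted sex. For the mean of diets it was 2 at an adjusted p under 0.1 and 2 with the replicate block, and 1 to 2 on leaving out single libraries (2 without enriched WT 2 or 4). Genes past the threshold on the moderate diet numbered 1906 at 0.1, 719 with the 2 groups alone, 105 without those 3 libraries and 538 to 2107 on leaving out single libraries (2107 without moderate mutant 3). For the mean of diets they numbered 2964 without the 3 libraries. For the enriched diet, DESeq2 gave 3 genes in mutants, 1 in WT and 1 over both genotypes, and single libraries left out gave 0 to 1 in mutants.

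Small uncalled log2 fold changes turned sign. On the moderate diet these were Lrp2 (-0.027 with sex read from counts), Slc46a1 (-0.13) and Lrpap1 (0.0076) without the 3 libraries. For the diet in mutants, Lrp2 was -0.0042 with limma-voom, -0.036 with no sex covariate, -0.016 with the 2 groups alone and -0.058 without the 3 libraries, and Slc19a1 was 0.029 without them. For the diet in WT, Slc19a1 was -0.0022 with the 2 groups alone. For the difference, Slc19a1 was 0.0027 and Ggh 0.018 without the 3 libraries. On leaving out single libraries, the ranges that crossed 0 were -0.019 to 0.12 for Slc19a1 on the enriched diet, -0.052 to 0.13 for Lrp2, -0.039 to 0.10 for Slc46a1 and -0.080 to 0.00048 for Lrpap1 on the moderate diet, -0.053 to 0.14 for Lrp2 and -0.12 to 0.0024 for Slc19a1 for the diet in mutants, -0.30 to 0.20 for Folr1 and -0.0074 to 0.13 for Slc19a1 for the diet in WT, and -0.43 to 0.061 for Folr1 and -0.20 to 0.0055 for Ggh for the difference. The cause was not tested.

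Replicate numbers did not pair the libraries throughout: same-numbered deviations correlated above 0.1 in 8 of 24 pairs, and 5 of 16 libraries correlated best with their own number. The highest values were those of replicate 4. They were 0.505 for enriched mutants with enriched WT, 0.456 for enriched WT with moderate mutants and 0.317 for enriched mutants with moderate mutants. Moderate WT 4 did not share this, at -0.166 with enriched mutant 4, 0.071 with enriched WT 4 and 0.113 with moderate mutant 4. With the replicate block, Fpgs passed on the enriched diet (-0.21, adjusted p = 0.0350) and for the mean of diets (-0.13, adjusted p = 0.0453). Depth limits Folr2 and, less so, Folr1.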

Other observations

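Replicate 4 of 3 groups held the lowest values of several members at once. Enriched mutant 4 had the lowest Folr1 (1.69 CPM), Slc19a1 (40.4), Slc46a1 (14.8) and Fpgs (38.6) of its group. Enriched WT 4 had the lowest Folr1 (3.42 CPM), Slc19a1 (41.9), Slc46a1 (19.2), Fpgs (44.9) and Ggh (7.26) of its group. Moderate mutant 4 had the lowest Folr1 (1.88 CPM), Slc19a1 (46.0) and Slc46a1 (18.8) of its group. Reads on no annotated feature came to 17.0%, 16.8% and 15.95% in these libraries, against 13.7 to 14.8% in enriched mutants 1 to 3, 14.7 to 15.2% in enriched WT 1 to 3 and 14.02 to 15.97% in moderate mutants 1 to 3. Moderate WT 4 did not follow this, with the highest Folr1 of all libraries (8.53 CPM) and the lowest share of such reads in its group (14.6%). The labels give no batch, and these values are a description.

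Enriched mutant 4 also had the highest endoderm marker sum (133 CPM), and enriched mutant 3 the highest sum of decidua and placenta markers (a sum of 194 CPM, of which Prl8a2 made up 189 CPM, where the sum was at most 8.72 CPM in enriched WT). Without enriched mutant 3 the enriched log2 fold change of Folr1 was -1.50 (edgeR adjusted p = 0.00265) and that of Slc46a1 -0.47 (adjusted p = 0.0188). Without enriched mutant 4 they were -1.40 (adjusted p = 0.00651) and -0.35 (adjusted p = 0.0851).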
